A study of Mus musculus with 20 samples.

Results

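Cells short of amino acids raise the transporters that bring them in, and 10 such genes were followed in the ileum of mice fed with or without tryptophan (Trp): Slc7a5, Slc3a2, Slc7a1, Slc7a3, Slc7a11, Slc1a4, Slc1a5, Slc1a7, Slc38a2 and Slc6a15. They were taken by name from the gene-level count table, where all 10 were found among 35204 genes, and all 10 were among the 16306 genes with at least 0.5 CPM (counts scaled to the size of the library) in at least 1 mouse. The mice were female C57Bl6 animals, 7 weeks old at the start, and every group ate a defined amino acid diet for 3 weeks. Of 20 mice, 5 received the complete control diet (CD) and 5 the same diet without Trp (TDD), both with a specific pathogen-free (SPF) microbiota. A further 5 received CD and 5 received TDD together with antibiotics (ABX), namely Ampicillin, Vancomycin, Gentamycin, Metronidizole and Neomycin. RNA came from a 0.5 cm piece of whole ileum wall cut 2 cm from the caecum, so epithelium, muscle and immune cells were measured together, and fewer cells of a type cannot be told apart from less RNA per cell. Each library held 36676963 to 58662617 estimated counts.

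When an amino acid runs short, uncharged transfer RNAs activate the kinase GCN2, which phosphorylates eIF2α, slows translation in general and favours translation of the transcription factor ATF4. ATF4 pairs with C/EBP proteins on composite sites and raises amino acid synthesis enzymes, transfer RNA synthetases and transporters. Tryptophan, a large neutral amino acid, enters most cells through LAT1, the product of Slc7a5, which works only when bound to the glycoprotein 4F2hc, the product of Slc3a2. The intestinal brush border takes up neutral amino acids mainly through another transporter, B0AT1 (Slc6a19).

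Slc7a5 mRNA was raised in mice that had both the Trp-deficient diet and ABX. It was 2.61-fold higher than on CD with ABX and 2.44-fold higher than on TDD without ABX. Slc7a1 and Slc1a4 were each 1.8-fold higher in TDD+ABX than in TDD mice, under the 2-fold limit used here for a call, and Slc3a2 was 1.33-fold higher in CD+ABX than in CD mice. TDD feeding alone, in SPF mice, gave no call among the 10 genes, where 1.84% of all genes were called. A difference between the diet effects on Slc7a5 with and without ABX was not shown (adjusted p = 0.438, edgeR).

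The 10 mRNAs covered a wide range of levels, compared here in TPM, which scale a gene's counts to transcript length and library size. Slc3a2 was the highest in every mouse, at 305 ± 49.1 TPM (mean ± SD, n = 20 mice). Slc1a5, which encodes the neutral amino acid exchanger ASCT2, followed at 48.4 ± 7.31 TPM, and Slc38a2, which encodes the sodium-coupled transporter SNAT2, at 24.8 ± 5.13 TPM. Slc7a1, which encodes the cationic amino acid transporter CAT1, lay at 8.99 ± 3.27 TPM and Slc7a5 at 4.11 ± 2.83 TPM. Down to Slc7a5, each gene lay below the one above it in 20 of 20 mice. Slc1a4, which encodes the alanine, serine and cysteine transporter ASCT1, reached 3.22 ± 1.37 TPM and lay below Slc7a5 in 13 of 20 mice, so the order of this pair was not fixed.

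The other 4 genes were rare. Slc7a11, the cystine and glutamate exchanger xCT, had 0.369 ± 0.146 TPM and lay below Slc1a4 in 20 of 20 mice. Slc7a3 (cationic transporter CAT3) had 0.332 ± 0.141 TPM, Slc6a15 (neutral amino acid transporter B0AT2, best known from neurons) 0.231 ± 0.108 TPM and Slc1a7 (glutamate transporter EAAT5) 0.189 ± 0.0888 TPM, with their order changing between mice. Slc1a7 rested on 6 to 32 counts per mouse and reached 0.5 CPM in 3 of 20 mice, Slc6a15 on 9 to 44 counts and 11 mice, and Slc7a3 on 9 to 61 counts and 10 mice.

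Genes also differed in how much of their signal was assigned to transcripts annotated as protein-coding. That share was 99% ± 0.275 for Slc3a2, 97% ± 1.12 for Slc7a1, 92% ± 1.39 for Slc38a2 and 89.2% ± 8.53 for Slc7a5 (mean ± SD, n = 20 mice), and both Slc1a4 transcripts are coding. Slc1a5 stood at the other end, with 11.4% ± 4.15. Its retained-intron transcript Slc1a5-202 carried 52.8% of the gene's TPM and its coding transcript Slc1a5-201 11.5%. Slc7a11 had a coding share of 51.1% ± 15.6, most of the rest being 2 retained-intron transcripts.

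**Figure D1:**
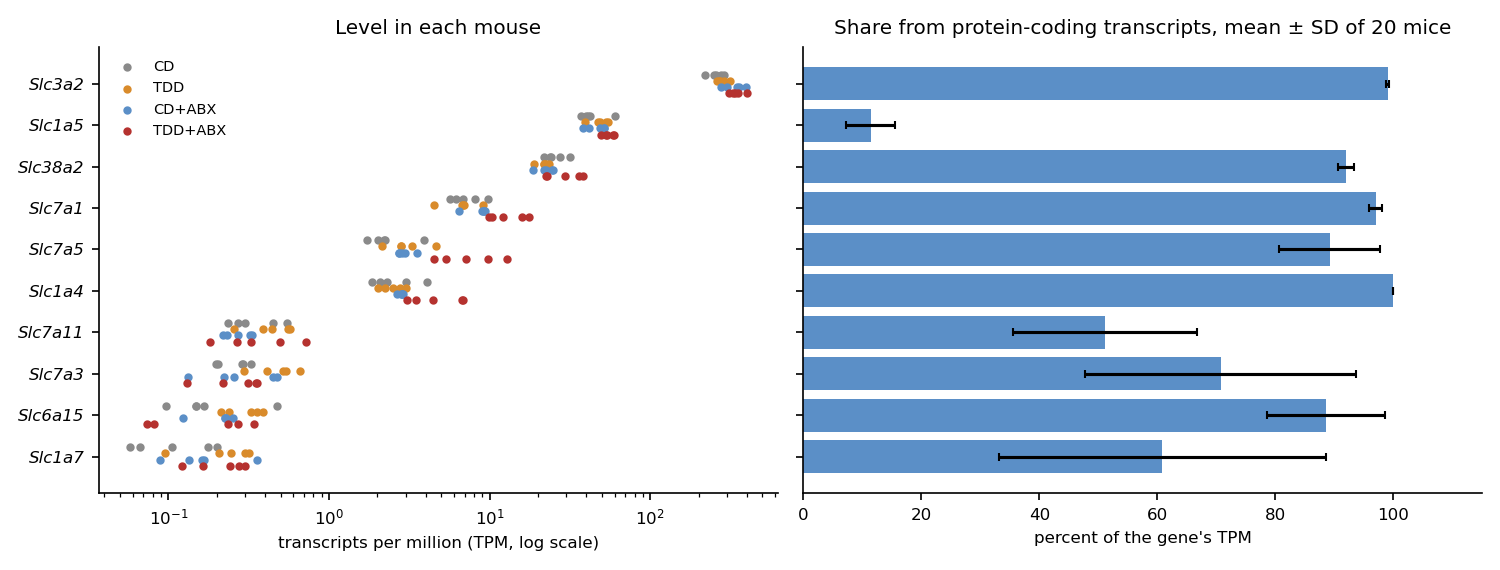
Level of each gene in each of 20 mice in TPM on a log axis, coloured by group (left), and the percent of the gene's TPM from transcripts annotated as protein-coding, as mean ± SD of 20 mice (right). Slc3a2 lies highest at 218 to 401 TPM, and Slc1a5 is the second highest gene but has a coding share of 11.4%.

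The composite site bound by ATF4 with C/EBP proteins has the core TGATGNAA. Promoter windows of 300 bases, 250 before and 50 after the annotated start, were available from RefSeq (GRCm38.p6) for Slc7a11, Slc1a7, Slc7a1, Slc1a4, Slc38a2 and Slc3a2. The core, searched on both strands, was present in 3.97% of all 32851 windows, and among these 6 genes in the windows of Slc7a11 and Slc1a4. It was also present in 12 of 37 genes with a window in a list of ATF4 and stress-response genes, among them Chac1, Asns and Trib3, which are described further on. Of other amino acid transporters 1 of 29 genes held it, and of amino acid sensing genes 1 of 26. The 3.97% counts windows, whereas these are counts of genes, and a gene can have more than 1 window. The windows are shown to let the sites be compared. Each line gives 30 bases on the gene's own strand, 5′ to 3′, with the core in capitals, which reads TTNCATCA where it lies on the opposite strand.
Slc1a4, chr11:20332699-20332728, minus strand: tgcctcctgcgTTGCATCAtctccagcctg
Slc7a11, chr3:50443661-50443690, minus strand: tctcatgtggcTGATGCAAacctggagaat
Slc7a11, chr3:50443642-50443671, minus strand: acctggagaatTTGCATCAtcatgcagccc
Chac1, chr2:119351038-119351067, plus strand: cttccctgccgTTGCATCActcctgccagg
Asns, chr6:7693214-7693243, minus strand: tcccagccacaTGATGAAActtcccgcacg
Trib3, chr2:152344028-152344057, minus strand: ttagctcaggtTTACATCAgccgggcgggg

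Slc7a11 was the member with 2 matches, which begin 66 and 47 bases before the start and face each other. Its 250 bases before the start (chr3:50443614-50443863, minus strand) are shown whole, with both matches in capitals.
Slc7a11 upstream: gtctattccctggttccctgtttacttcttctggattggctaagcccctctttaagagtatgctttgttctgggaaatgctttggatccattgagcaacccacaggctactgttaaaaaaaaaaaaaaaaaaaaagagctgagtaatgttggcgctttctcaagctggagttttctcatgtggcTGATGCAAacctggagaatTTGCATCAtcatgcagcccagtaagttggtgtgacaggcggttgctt
The match of Slc1a4 spans its annotated start. A match describes the letters only, and binding was not measured.

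Slc7a5 (chromosome 8 of GRCm38, 121881150 to 121907694, minus strand) showed its highest values in TDD+ABX mice. In CD mice 1 to 5 its levels were 5.29, 8.93, 4.17, 4.01 and 6.06 CPM, and in TDD mice 5.8, 7.29, 6.27, 7.62 and 11.3 CPM. In CD+ABX mice they were 6.66, 6.93, 7.96, 7.53 and 6.9 CPM, and in TDD+ABX mice 11.8, 10.7, 31.4, 16.2 and 23.7 CPM. All 5 TDD+ABX mice lay above all CD+ABX mice, with mice 3 and 5 far above the other three, and 4 of them lay above the highest TDD mouse. The group means were 5.69 ± 1.99 in CD, 7.66 ± 2.19 in TDD, 7.2 ± 0.536 in CD+ABX and 18.8 ± 8.7 CPM in TDD+ABX mice (SD, n = 5 each).

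Under ABX, TDD raised Slc7a5 by 1.38 ± 0.27 on the log2 scale (SE, adjusted p = 0.0138, edgeR's quasi-likelihood test, adjusted by Benjamini-Hochberg over all genes tested, as for every adjusted p of an edgeR fit given here). On TDD, ABX raised it by 1.29 ± 0.27 (adjusted p = 0.00486, edgeR). Both contrasts use the same TDD+ABX mice. Both calls were made in 20 of 20 fits that left out 1 mouse. The smallest changes, 1.11 for the diet and 1.03 for ABX, came without TDD+ABX mouse 3. The diet effect in SPF mice was 0.43 ± 0.27 (adjusted p = 0.316, edgeR) and the ABX effect on CD was 0.34 ± 0.27 (adjusted p = 0.475, edgeR). The diet effect with ABX exceeded that in SPF mice by 0.95 ± 0.38 (unadjusted p = 0.022 and adjusted p = 0.438, edgeR), so a difference between the diet effects was not shown.

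The coding transcript Slc7a5-201 carried the pattern. It had 2.14 ± 0.798 TPM in CD, 2.73 ± 0.802 in TDD, 2.67 ± 0.245 in CD+ABX and 7.28 ± 3.6 TPM in TDD+ABX mice (SD, n = 5 each). Its lowest TDD+ABX mouse, at 3.96 TPM, lay above the highest CD+ABX mouse, at 2.99 TPM.

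**Figure D2:**
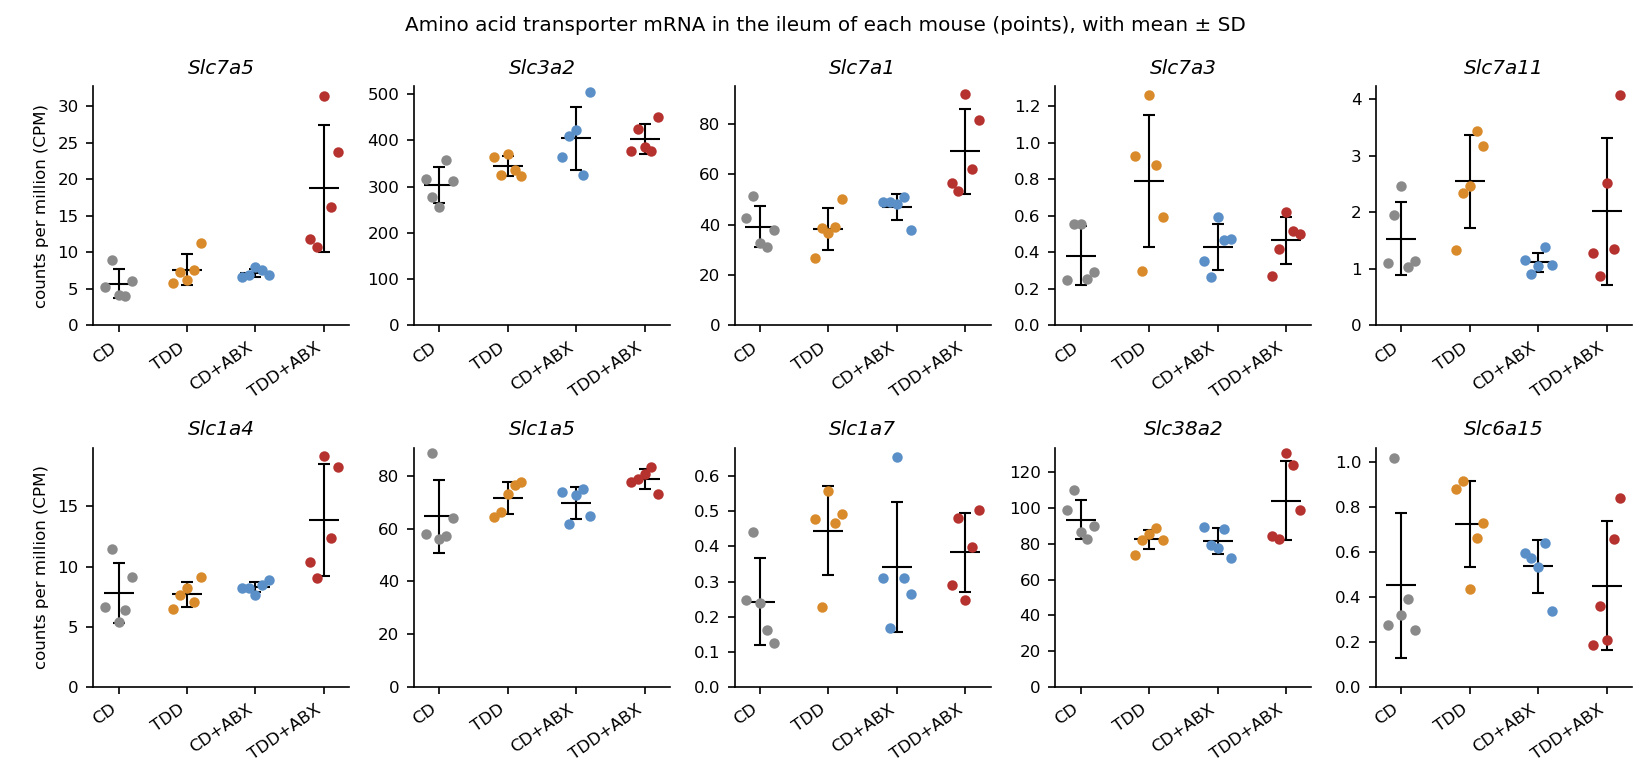
CPM of each of the 10 genes in every mouse (points, mice 1 to 5 from left to right within a group), with the group mean and SD (black). For Slc7a5 the TDD+ABX mice lie between 10.7 and 31.4 CPM and all CD+ABX mice at 7.96 CPM or below.

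Slc3a2 (chromosome 19, 8706882 to 8723369, minus strand), whose product 4F2hc also anchors xCT and several other light chains, was raised by ABX on CD. Its levels were 316, 277, 255, 358 and 312 CPM in CD mice, and 363, 326, 371, 336 and 324 CPM in TDD mice. With ABX they were 363, 409, 422, 325 and 505 CPM on CD, and 377, 425, 385, 377 and 450 CPM on TDD. All TDD+ABX mice lay above all TDD mice, and 4 of 5 CD+ABX mice above the highest CD mouse. ABX raised Slc3a2 by 0.41 ± 0.10 on CD (log2, SE, adjusted p = 0.0141, edgeR), and the value on TDD was 0.23 ± 0.10 (adjusted p = 0.148, edgeR). The ABX effect on TDD differed from that on CD by -0.19 ± 0.15 (unadjusted p = 0.221 and adjusted p = 0.775, edgeR). A difference between the ABX effects was thus not shown. With only CD and CD+ABX mice in the fit, the adjusted p was 0.0686. TDD differed from CD by 0.18 ± 0.10 in SPF mice and by -0.01 ± 0.10 with ABX (adjusted p = 0.271 and 0.989, edgeR).

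At the mRNA level the heavy chain lay far above this light chain in every mouse. The ratio of Slc3a2 to Slc7a5 TPM was 116 ± 38.4 in CD, 95.6 ± 27.2 in TDD, 114 ± 19.2 in CD+ABX and 50 ± 19.7 in TDD+ABX mice (SD, n = 5 each). It ranged from 96.7 to 145 in CD+ABX and from 26.2 to 78.8 in TDD+ABX mice, without overlap.

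Slc7a1 (chromosome 5, 148327410 to 148399904, minus strand) imports arginine, lysine and ornithine. Its levels were 42.5, 51.4, 32.6, 31.2 and 37.9 CPM in CD mice, and 26.7, 38.7, 36.5, 39 and 50.3 CPM in TDD mice. They were 48.8, 49.1, 48, 51 and 37.7 CPM in CD+ABX mice, and 56.4, 53.4, 91.7, 62.2 and 81.4 CPM in TDD+ABX mice. The 5 TDD+ABX mice held the highest values of all 20, again with mice 3 and 5 on top, and overlapped no other group. On TDD, ABX raised Slc7a1 by 0.85 ± 0.17 (log2, SE; adjusted p = 0.00382, edgeR). The diet effect with ABX was 0.56 ± 0.17 and did not pass (adjusted p = 0.108, edgeR; 0.0306 with DESeq2), and that in SPF mice was -0.03 ± 0.17 (adjusted p = 0.933, edgeR).

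Slc1a4 (chromosome 11, 20302180 to 20332713, minus strand) behaved similarly. Its levels were 6.66, 11.5, 5.42, 6.38 and 9.11 CPM in CD, and 6.45, 7.63, 8.24, 7.04 and 9.12 CPM in TDD mice. They were 8.24, 8.25, 7.65, 8.48 and 8.9 CPM in CD+ABX, and 10.4, 9.02, 19.2, 12.4 and 18.3 CPM in TDD+ABX mice. TDD+ABX mice lay above all CD+ABX mice but overlapped TDD and CD mice, and mice 3 and 5 were the highest. ABX raised it on TDD by 0.85 ± 0.21 (log2, SE; adjusted p = 0.0112, edgeR). The diet effect with ABX, 0.74 ± 0.21, did not pass (adjusted p = 0.0751, edgeR; 0.0151 with DESeq2). By edgeR it passed without CD mouse 2 (adjusted p = 0.0309) or TDD+ABX mouse 2 (adjusted p = 0.043) and not in the other fits with 1 mouse left out. In SPF mice the diet effect was -0.02 ± 0.21 (adjusted p = 0.963, edgeR).

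Slc38a2 (chromosome 15, 96687392 to 96699730, minus strand), which supplies glutamine, alanine and other small neutral amino acids, had 98.7, 110, 86.6, 82.5 and 89.8 CPM in CD mice and 74, 82.1, 85.4, 88.9 and 82.3 CPM in TDD mice. With ABX it had 89.6, 79.5, 77.9, 88.2 and 72.3 CPM on CD and 84.5, 82.6, 131, 124 and 99.2 CPM on TDD. TDD+ABX mice 3, 4 and 5 were above every CD+ABX mouse, and mice 1 and 2 were among them. With all 20 mice, no comparison passed by edgeR's quasi-likelihood test. The closest was ABX on TDD, with 0.34 ± 0.12 (log2, SE; adjusted p = 0.0545; 0.017 with DESeq2), which passed in 7 of 20 edgeR fits with 1 mouse left out, among them those without CD mouse 2 (adjusted p = 0.026) and CD mouse 5 (adjusted p = 0.0483). The diet effect was -0.18 ± 0.12 in SPF mice and 0.36 ± 0.12 with ABX, a difference of 0.54 ± 0.16 (unadjusted p = 0.00398, adjusted p = 0.272, edgeR), the lowest unadjusted interaction p among the 10 genes.

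Slc7a11 (chromosome 3, 49892526 to 50443614, minus strand) brings in cystine for glutathione synthesis. It had 1.1, 1.95, 2.47, 1.03 and 1.14 CPM in CD mice and 1.33, 2.34, 2.46, 3.44 and 3.18 CPM in TDD mice. With ABX it had 1.15, 0.911, 1.06, 1.38 and 1.07 CPM on CD and 1.28, 0.88, 2.52, 1.35 and 4.07 CPM on TDD. TDD mice were mostly higher than CD mice in both settings, but the groups overlapped. The diet effect was 0.72 ± 0.36 in SPF mice (adjusted p = 0.191, edgeR) and 0.85 ± 0.36 with ABX (adjusted p = 0.27, edgeR), where it fell to 0.43 without TDD+ABX mouse 5. The share of its TPM from coding transcripts was 42.3% ± 8.7 in CD, 66.6% ± 8.87 in TDD, 37.9% ± 7.83 in CD+ABX and 57.7% ± 16.4 in TDD+ABX mice (SD, n = 5 each), and was not tested.

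Slc1a5 (chromosome 7, 16781340 to 16798274, plus strand), the glutamine carrier ASCT2, had 57.9, 88.9, 56, 57.1 and 63.9 CPM in CD mice and 64.5, 66.5, 73, 76.4 and 77.8 CPM in TDD mice. With ABX it had 73.9, 61.8, 72.9, 75.2 and 65 CPM on CD and 77.6, 78.7, 80.8, 83.4 and 73.2 CPM on TDD. CD mouse 2 held the highest value of all 20, and every TDD mouse lay above the other 4 CD mice. The diet effect in SPF mice was 0.15 ± 0.10 (log2, SE; adjusted p = 0.382, edgeR). Without CD mouse 2 it was 0.28 (adjusted p = 0.0077, edgeR), and the ABX effect on CD went from 0.11 (adjusted p = 0.568) to 0.25 (adjusted p = 0.0168) by the same test.

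By the estimates per transcript, these counts came mostly from transcripts not annotated as protein-coding. How well the reads tell these transcripts apart was not tested. The coding transcript Slc1a5-201 alone had 4.58 ± 2.4 TPM in CD (2.19 to 8.62) and 7.69 ± 1.01 TPM in TDD mice (6.13 to 8.52). With ABX it had 3.71 ± 1.4 TPM on CD (1.71 to 5) and 6.28 ± 1.32 TPM on TDD (4.25 to 7.53, SD, n = 5 each). The retained-intron Slc1a5-202 had 23.9 ± 4.91, 22.2 ± 2.95, 27 ± 3.02 and 29.2 ± 2.42 TPM in CD, TDD, CD+ABX and TDD+ABX mice. The coding transcript therefore had higher means on TDD in both settings while the retained-intron form did not follow the diet in SPF mice. The groups overlapped for the coding transcript in both settings, and no test across transcripts was run.

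The 3 rarest genes had their highest group means in TDD mice without ABX. Slc7a3 (chromosome X, 101079210 to 101086020, minus strand), which like Slc7a1 carries cationic amino acids, had 0.248, 0.558, 0.558, 0.252 and 0.295 CPM in CD and 0.928, 0.298, 1.26, 0.88 and 0.595 CPM in TDD mice. Of the TDD mice, 4 lay above every CD mouse and mouse 2 lay among them. The diet effect was 1.04 ± 0.35 (log2, SE; adjusted p = 0.053, edgeR), just short of a call, and was called by DESeq2 (adjusted p = 0.0384) and by edgeR without CD mouse 2, CD mouse 3 or TDD mouse 2. Without TDD mouse 3 it was 0.79 (adjusted p = 0.17, edgeR). With ABX the diet effect on Slc7a3 was 0.11 ± 0.35 (adjusted p = 0.919, edgeR).

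Slc1a7 (chromosome 4, 107968332 to 108013532, plus strand), a glutamate transporter known mainly from retina, had 0.243 ± 0.122 CPM in CD and 0.445 ± 0.126 CPM in TDD mice (SD, n = 5 each), a change of 0.87 ± 0.37 (log2, SE; adjusted p = 0.127, edgeR). Slc6a15 (chromosome 10, 103367783 to 103419377, plus strand) had 0.452 ± 0.324 and 0.724 ± 0.193 CPM (SD, n = 5 each), a change of 0.68 ± 0.42 (adjusted p = 0.305, edgeR). Without CD mouse 2, both were called, at 1.19 for Slc1a7 (adjusted p = 0.0339, edgeR) and 1.21 for Slc6a15 (adjusted p = 0.0318, edgeR). Without CD mice 2 and 5 both missed the threshold (adjusted p = 0.104 and 0.0868, edgeR). CD mouse 2 had the highest Slc6a15 value of all 20 mice, 1.02 CPM, and also the highest summed level of 7 neuron and glia markers, 35.2 CPM against 8.75 to 19.5 CPM in the other CD mice. The part of these cells in the Slc6a15 value was not tested.

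**Figure D3:**
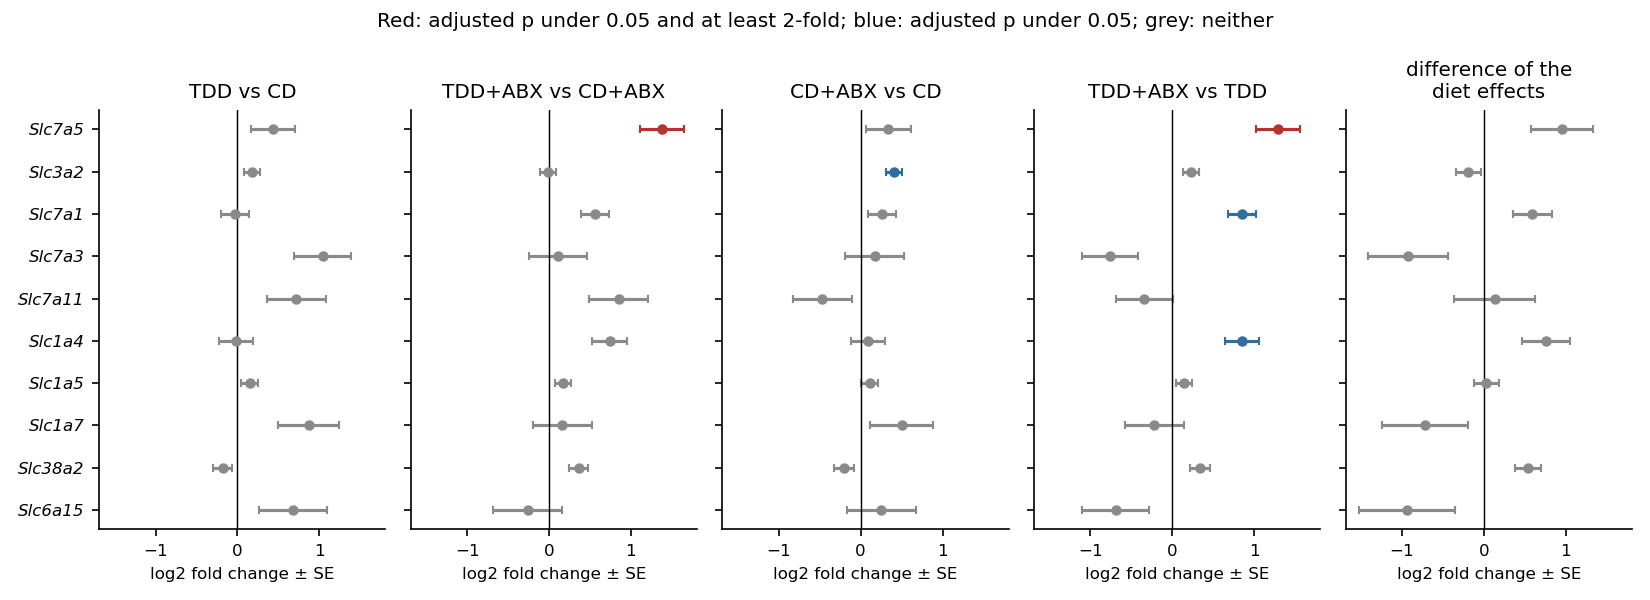
Log2 fold change with its standard error for each gene in each of 4 comparisons and for the difference of the diet effects (with ABX minus SPF). Slc7a5 is called where TDD+ABX mice are compared with CD+ABX mice (1.38) and with TDD mice (1.29). None of these genes is called for TDD against CD, where 1.84% of all genes are.

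Counted over the 10 genes, calls were few. A call needed an adjusted p under 0.05 and a change of at least 2-fold (edgeR's quasi-likelihood test). For the diet in SPF mice 0 of 10 were called, where 1.84% of all 16306 genes were, and DESeq2 called 1, where it called 1.93% of all genes. For the diet with ABX 1 of 10 was called (Slc7a5), against 0.331% of all genes. For ABX on CD 0 of 10 were called, against 2.3% of all genes, and by DESeq2 also 0, against 2.5%. For ABX on TDD 1 of 10 was called (Slc7a5), against 1.67%. The difference of the diet effects was called for 0 of 10, against 0.0245% of all genes, and by DESeq2 also for 0, against 0.314%. An unadjusted p under 0.05 (edgeR) was found for 2 of 10 for the diet in SPF mice (28.5% of all genes), 5 for the diet with ABX (14.8%), 1 for ABX on CD (26.7%), 6 for ABX on TDD (30.6%) and 4 for the difference of the diet effects (8.9%).

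Without the fold limit the counts were 0 for the diet in SPF mice (14.4% of all genes), 1 for the diet with ABX (1.77%), 1 for ABX on CD (12.8%), 3 for ABX on TDD (15.5%) and 0 for the difference of the diet effects (0.0368%). The mice of the groups compared did not overlap for 0 of 10 genes for the diet in SPF mice (9.58% of all genes), for 3 for the diet with ABX (4.78%), for 0 for ABX on CD (9.74%) and for 2 for ABX on TDD (11%). The 3 genes for the diet with ABX were Slc7a5, Slc7a1 and Slc1a4, and the 2 for ABX on TDD were Slc7a1 and Slc3a2. The median log2 fold change of the 10 genes was 0.31 for the diet in SPF mice, 0.27 for the diet with ABX, 0.21 for ABX on CD and 0.18 for ABX on TDD, where all genes had medians of 0.01, 0.00, 0.00 and -0.03.

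CD libraries 2 and 5 stood apart. CD mouse 5 held 194 CPM of 7 exocrine pancreas transcripts, against 3.63 to 5.36 CPM in the other CD mice. CD mouse 2 held 12420 CPM of 7 ileal enterocyte markers, against 25130 to 31706 CPM in the other CD mice, and 2637 CPM of smooth muscle markers, the most of all mice. It also had the highest CD value of Slc7a5, Slc7a1, Slc1a4, Slc1a5, Slc38a2, Slc1a7 and Slc6a15. With both mice left out, the diet effect on Slc7a5 in SPF mice was 0.77 (adjusted p = 0.0944, edgeR) and the difference of the diet effects 0.61. In that fit 0 of the 10 genes were called for TDD against CD, where 1.72% of all genes were.

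Markers of other cell types were read beside the rise of Slc7a5. Between CD+ABX and TDD+ABX mice, 0 of the 7 genes of each of 11 marker lists were called. Only 0.331% of all genes were called there, so the absence of calls does not show equal cell content. All 7 B cell (list median log2 3.10), 7 T cell (0.18) and 7 plasma cell markers (0.15) had higher estimates on TDD. All 7 macrophage (-0.33) and 7 smooth muscle markers (-0.33) had lower ones. Summed T cell markers ranged from 14.5 to 19.4 CPM in CD+ABX and 13.4 to 33.6 CPM in TDD+ABX mice, B cell markers from 3.02 to 8.97 and 4.2 to 120 CPM, and proliferation markers from 299 to 541 and 353 to 562 CPM. TDD+ABX mouse 3, with the highest Slc7a5, had 15 CPM of T cell and 5.97 CPM of B cell markers, within the CD+ABX ranges, whereas mouse 5 had 33.6 and 120 CPM. Between TDD and TDD+ABX mice, where 1.67% of all genes were called, some marker genes were called. Of 7 T cell markers 1, Trac, was called lower with ABX (list sum 21.7 to 45.8 CPM in TDD and 13.4 to 33.6 CPM in TDD+ABX mice), and of 7 plasma cell markers 3, Jchain, Igha and Mzb1, were called lower (1655 to 3432 and 1243 to 1624 CPM). Of the ileal enterocyte markers Fabp2, Slc10a2 and Fabp6 were called higher and Apoa4 lower. Under 2-fold but with an adjusted p under 0.05, 2 of 7 proliferation markers, the epithelial Krt19 and Krt8 and the plasma cell marker Sdc1 were higher with ABX. At the same limits, Cd3e and Cd3g (T cell), Derl3 and Tnfrsf17 (plasma cell) and Sis (enterocyte) were lower. So were 3 of 7 macrophage and 3 of 7 endothelial markers. With no fold limit, 15.5% of all genes had an adjusted p under 0.05 in this comparison. Between CD and CD+ABX mice, where Slc3a2 rose and 2.3% of all genes were called, 5 of 7 T cell markers were called lower (list sum 34.2 to 90.7 CPM in CD and 14.5 to 19.4 CPM in CD+ABX mice). Slc10a2 (16.7-fold), Fabp6 (35.2-fold) and Fabp2 (2.3-fold) were called higher, and Sis and Apoa4 lower. Krt19 and Krt8 were 1.51-fold and 1.28-fold higher (adjusted p = 0.00342 and 0.0306, edgeR), and 6 of 7 macrophage markers were lower without reaching 2-fold. Also under 2-fold with an adjusted p under 0.05, the plasma cell markers Mzb1 and Tnfrsf17 and the endothelial Vwf and Esam were lower, and Sdc1 was higher. Over all genes, 12.8% had an adjusted p under 0.05 for ABX on CD with no fold limit. Of 7 pancreas transcripts 4 were called lower, against the CD group that holds mouse 5. Of these, Ctrb1, Cpa1 and Amy2a5 passed the filter only through that mouse (34.4, 23.3 and 27.5 CPM), and Cela2a was not called without it. The pancreas calls thus rest on 1 mouse and support nothing here. The part of the other marker changes in the ABX effects on the transporters was not tested.

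Other genes of the ATF4 response were read from a list of 43, of which 41 were tested. For the diet with ABX, 5 were called higher and 1 lower, where 0.331% of all genes were called, with a list median of 0.21. Chac1, which degrades glutathione, was 9.39-fold higher in TDD+ABX than in CD+ABX mice (log2 3.23 ± 0.54, adjusted p = 0.00573, edgeR), Mthfd2, a mitochondrial folate enzyme, 2.06-fold higher (adjusted p = 0.0186). Without TDD+ABX mouse 3 the log2 change of Chac1 was 2.50, and it was called in 20 of 20 fits with 1 mouse left out. Gdf15, a stress-induced cytokine, and the transcription factor Atf5 were also called higher, and Nupr1, a stress-induced nuclear protein, was 2.02-fold lower (adjusted p = 0.00689). With 1 mouse left out these calls were made less steadily, in 18 of 20 fits for Mthfd2 (not without TDD+ABX mouse 3 or 5), 17 for Gdf15, 16 for Nupr1 and 13 for Atf5, and with the replicate number as a block 1 of the 6 calls of the list was made. Adm2, a secreted peptide, was the remaining gene called higher. It passed the filter only through TDD+ABX mice 3 and 5, at 1.22 and 1.39 CPM, where the other 18 mice had 0.022 to 0.338 CPM, so its calls support nothing here. For ABX on TDD, Chac1, Cars, Mthfd2 and Adm2 were called, all higher, where 1.67% of all genes were called. Chac1 was 24-fold up (log2 4.59 ± 0.59, adjusted p = 0.000227, edgeR), or 3.88 on the log2 scale without TDD+ABX mouse 3. Cars, the cysteinyl-tRNA synthetase, was 2.31-fold higher (adjusted p = 0.000406, edgeR). Its means were 21.6 CPM in CD, 12.8 in TDD, 26.2 in CD+ABX and 29.7 CPM in TDD+ABX mice. It was lower on TDD in SPF mice (log2 -0.75 ± 0.17, SE, adjusted p = 0.0063, edgeR). TDD+ABX mice (18.6 to 40.2 CPM) overlapped CD+ABX mice (24.3 to 28 CPM), and Cars was not called for the diet with ABX.

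In SPF mice the list split. Aldh1l2 (4.53-fold), Trib3 (2.33-fold) and Psat1 (2.19-fold) were higher on TDD, whereas Aldh18a1 (2.47-fold) and Chac1 (3.43-fold) were lower, with a list median of 0.13 (edgeR's quasi-likelihood test). These 5 calls were made among 41 genes tested, where 1.84% of all genes were called. The Chac1 call was made in 11 of 20 fits with 1 mouse left out, and not without CD mouse 2 (adjusted p = 0.101) or CD mice 2 and 5 together (adjusted p = 0.119, edgeR). Asns, asparagine synthetase, was 1.96-fold higher in SPF mice (adjusted p = 0.00666) and 1.85-fold higher with ABX (adjusted p = 0.0479, under 0.05 in 5 of 20 fits with 1 mouse left out). Trib3, a pseudokinase, was 1.85-fold higher with ABX (adjusted p = 0.0411, under 0.05 in 9 of 20 such fits). Atf4 mRNA itself was higher with ABX on TDD (0.54 ± 0.11, adjusted p = 0.00319, edgeR, and under 0.05 in 20 of 20 fits with 1 mouse left out). On TDD in SPF mice it was lower by the main test (-0.34 ± 0.10, adjusted p = 0.0371, edgeR), but the adjusted p was under 0.05 in 13 of 20 such fits, 0.102 without CD mouse 5 and 0.143 without CD mice 2 and 5. Ddit3, which encodes CHOP, had -0.04 ± 0.12 for the diet with ABX (adjusted p = 0.911). For ABX on CD, where 2.3% of all genes were called, only Aldh18a1 of the list was called, 2.03-fold lower.

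Chac1 was also the only gene of the list called for the difference of the diet effects (log2 5.01 ± 0.78, adjusted p = 0.0433, edgeR), where 0.0245% of all genes were called. Its call was made in 9 of 20 fits with 1 mouse left out. It had 5.47, 2.54, 22.8, 9.13 and 4.5 CPM in TDD+ABX mice 1 to 5, against 0.617 to 1.87 CPM in CD+ABX and 0.248 to 0.518 CPM in TDD mice, so all 5 lay above both groups.

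Of 35 other amino acid transporters tested, 1 was called for the diet in SPF mice (1.84% of all genes) and 2 for ABX on CD (2.3%). For the other 3 comparisons 0 were called (0.0245% to 1.67%). With no fold limit, 7 passed for the diet in SPF mice (6 higher, 1 lower), where 14.4% of all genes did. For ABX, 8 passed on CD (7 higher, 1 lower, 12.8% of all genes) and 7 on TDD (3 higher, 4 lower, 15.5%). For the diet with ABX (1.77%) and the difference of the diet effects (0.0368%) 0 passed. Slc6a18, a brush border carrier of small neutral amino acids, was 5.07-fold higher on TDD in SPF mice (adjusted p = 0.000386, edgeR) and 5.03-fold higher with ABX on CD (adjusted p = 0.000679, edgeR). Every CD mouse had 0.14 to 0.275 CPM of it (mean 0.205 CPM), under the 0.5 CPM limit. It thus entered the test only through the groups where it was higher, and its calls against CD are given as a description only. Neither call was made with limma on log2(TPM + 1). Slc6a19 was 2.45-fold higher with ABX on CD (adjusted p = 0.000736, edgeR), 1.56-fold higher with ABX on TDD (adjusted p = 0.0382) and 1.66-fold higher on TDD in SPF mice (adjusted p = 0.0201). Of 30 genes of amino acid sensing, from the GCN2 and mTORC1 pathways, 0 were called in any comparison. With no fold limit, 5 passed for the diet in SPF mice (14.4% of all genes) and 0 for the diet with ABX (1.77%). For ABX, 2 passed on CD (12.8%) and 3 on TDD (15.5%), and 0 passed for the difference of the diet effects (0.0368%).

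Slc7a5, Slc7a1 and Slc1a4 were each highest in TDD+ABX mice 3 and 5. Over all 20 mice, the gene whose log2(CPM + 0.5) followed Slc7a5 most closely of all genes tested was Mthfd2 (Pearson r = 0.95), then Slc1a4 (0.93) and Slc7a1 (0.91). For Slc1a4 the closest were Mthfd2 (0.94), Slc7a5 and Slc7a1 (0.89), and for Slc7a1 they were Slc7a5, Mthfd2 (0.91) and Iars, an isoleucyl-tRNA synthetase (0.90). These coefficients include the differences between groups and come from the same libraries. The TDD+ABX mice had 17.6, 12.6, 35.2, 20 and 32.8 CPM of Mthfd2, with mice 3 and 5 highest as for the transporters.

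Slc7a5 was the only member called, and was therefore set against the other 9 after removing each group's mean. The deviations of Slc7a1 (r = 0.89, Spearman's rho = 0.83) and Slc1a4 (r = 0.91, rho = 0.80) followed it over 20 mice (two-sided permutation within groups, 100000 permutations, adjusted over 9 relations, p = 9e-05 and 0.00045 for r, and 0.00234 and 0.00792 for rho). The unadjusted p for r were 1e-05, the smallest these permutations can give, and 0.0001. Without the 2 mice farthest from the median of Slc7a5, CD mouse 2 and TDD+ABX mouse 3, r was 0.85 for both. For Slc3a2 no such relation was found (r = -0.16, rho = -0.16, adjusted permutation p = 0.507 and 0.569), and Slc38a2 (r = 0.68), Slc7a11 (0.64) and Slc1a5 (0.51) lay between, with adjusted permutation p of 0.0427, 0.0549 and 0.0427. For these 3 the values of rho were 0.59, 0.61 and 0.51, with adjusted permutation p of 0.0561, 0.0561 and 0.0413. Without the same 2 mice, r was 0.49 for Slc38a2, 0.63 for Slc7a11 and 0.33 for Slc1a5, so those of Slc38a2 and Slc1a5 rested in part on them. For Chac1, which is not a member, r was 0.62 and rho 0.42 (unadjusted permutation p = 0.0365 and 0.137). Its r was 0.30 without the same 2 mice.

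**Figure D4:**
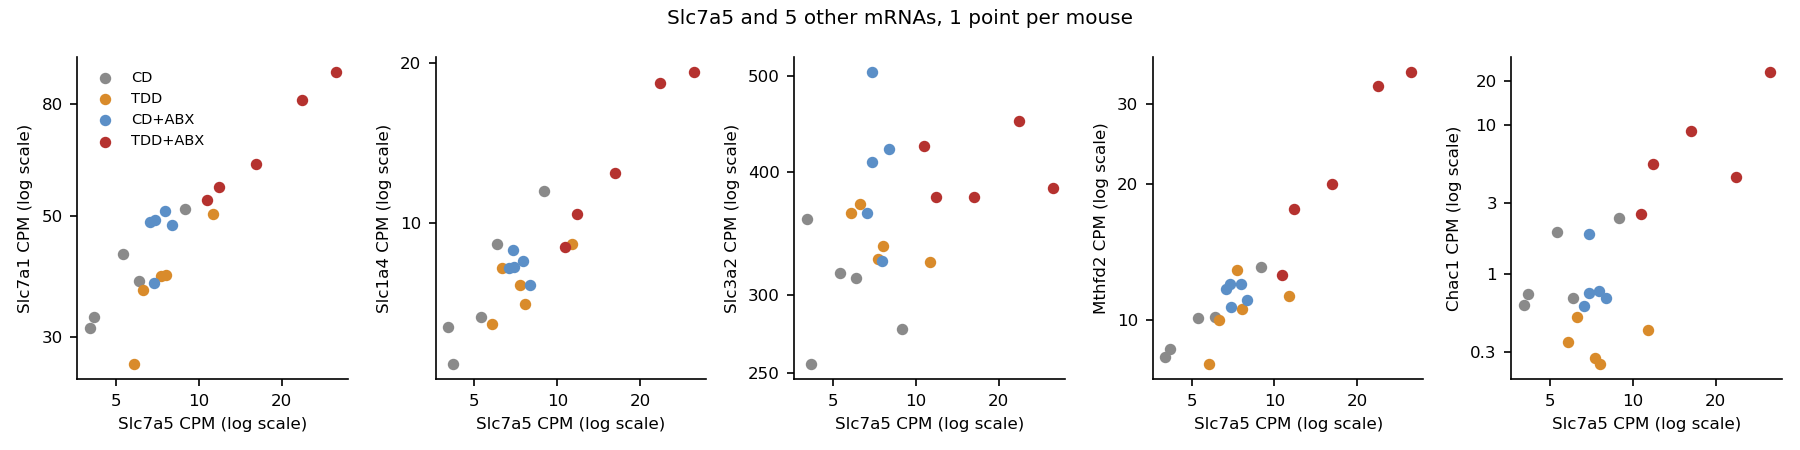
CPM of Slc7a1, Slc1a4, Slc3a2, Mthfd2 and Chac1 (vertical, log scale) against CPM of Slc7a5 (horizontal, log scale) in each of 20 mice, coloured by group. Slc7a1, Slc1a4 and Mthfd2 rise with Slc7a5 across the TDD+ABX mice, whereas Slc3a2 has no such slope. Chac1 follows Slc7a5 less closely, and TDD+ABX mouse 5 has 23.7 CPM of Slc7a5 but 4.5 CPM of Chac1.

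The remaining members kept other company. Slc3a2 was closest to Fam118a (r = 0.94), C530008M17Rik and Slc7a7 (both 0.92), the last encoding a light chain of the basolateral y+LAT1 transporter that pairs with 4F2hc. Slc1a5 was closest to Telo2 (0.92) and the ribosomal protein genes Rpl11 and Rps7 (both 0.90), and Slc6a15 to Mapt (0.91), the neuronal tau gene, Ccdc136 (0.89) and Arhgap44 (0.88). Slc7a11 was closest to Tspan10 (0.88), Aire and Kcnj15 (both 0.87), and Slc38a2 to Atmin (0.78). Slc7a3 was closest to Pabpc1l (0.84), and Slc1a7 to Cited4 (0.83). All are Pearson coefficients over 20 mice, as descriptions.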

How the data were processed

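The authors sequenced poly-A RNA from the ileum of 20 mice, 1 library per mouse, and quantified transcripts (mouse, GRCm38) by kallisto 0.44.0. They deposited estimated counts per gene, not normalized, and per-transcript estimated counts and TPM values for each mouse. The total per mouse (median 47553758) sets the counting precision. The paper gives 4 to 5 mice per group without naming those left out, and all 20 were used. Estimated counts, deposited as whole numbers, were taken as counts, scaled by TMM and given as CPM. Genes reaching 0.5 CPM in any mouse entered the test, in 1 fit of the 4 groups with edgeR 4.0.16 (R 4.3.3), called at a Benjamini-Hochberg adjusted p under 0.05 and at least 2-fold. Alternatives used DESeq2 1.42.0, limma 3.58.1, other scaling and filters, and left out mice. The TPM of transcripts was summed per gene, with annotation from GENCODE M21. In simulated counts, 196 of 200 changed genes were recovered with 1 false call, for the diet in SPF mice over 16072 genes. Recovery at the fold changes and counts of the 10 members was not tested separately. Samples sharing a replicate number did not deviate together. The members, lists and rules for named genes were chosen with earlier results of these data known. Named genes were the 10 members, Atf4, Ddit3, Chac1, Asns and Trib3, up to 5 called genes per list and comparison with the smallest adjusted p, and the 3 genes correlating best with each member, of which some are not reported here. Gdf15, Atf5, Nupr1 and Iars entered by this rule. P-values measure the spread between mice.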

Additional observations from a re-analysis of the deposited data

Results flagged for a closer look

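Of 40 combinations of member and group checked for a mouse far from the other 4 of its group, 4 were flagged, where chance flags about 1 in 20. They were Slc1a5 in CD mouse 2 at 88.9 CPM (56 to 63.9 CPM in the other CD mice), Slc6a15 in CD mouse 2 at 1.02 CPM (0.253 to 0.39 CPM), Slc7a1 in CD+ABX mouse 5 at 37.7 CPM (48 to 51 CPM in the other CD+ABX mice) and Slc1a7 in TDD mouse 2 at 0.229 CPM (0.468 to 0.559 CPM in the other TDD mice). Slc1a7 and Slc6a15 rest on few counts. Chac1 was flagged because the effect of the diet differed between ABX-treated and SPF mice, by 5.01 on the log2 scale in the interaction test (adjusted p = 0.0433, edgeR, adjusted by Benjamini-Hochberg).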

How the results depend on the processing

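Slc7a5 was called for the diet with ABX and for ABX on TDD under every alternative run, with log2 changes from 1.09 to 1.53 and from 1.03 to 1.48. For the diet in SPF mice DESeq2 called 1 member (1.93% of all genes). Fits without 1 mouse called 0 to 3, the most without CD mouse 2, where 2.29% of all genes were called. With no fold limit 1 member passed for ABX on CD (12.8% of all genes) and 3 for ABX on TDD (15.5%). Changes near 0 turned sign. For the diet in SPF mice, Slc7a1 was 0.11 and Slc1a4 0.32 without CD mice 2 and 5 (chosen after seeing the data), Slc1a4 was 0.04 with limma-voom, and without 1 mouse they ranged from -0.15 to 0.08 and from -0.13 to 0.15. For the diet with ABX, Slc7a3 was -0.03 with log2(TPM + 1), Slc3a2 was 0.01 with limma-voom and 0.05 with log2(TPM + 1), and without 1 mouse Slc7a3 ranged from -0.02 to 0.25, Slc3a2 from -0.08 to 0.09 and Slc1a7 from -0.01 to 0.53. For ABX on CD, Slc1a4 ranged from -0.02 to 0.27 without 1 mouse. For the difference of the diet effects, Slc7a11 was -0.13 with limma-voom and Slc1a5 -0.15 without CD mice 2 and 5, and without 1 mouse they ranged from -0.28 to 0.32 and from -0.09 to 0.08. The cause of these turns was not tested. With the replicate number as a block, Slc7a5 kept both calls (adjusted p = 0.0345 for the diet with ABX, edgeR). Same-numbered mice correlated between -0.355 and 0.248 in their deviations, so no pairing by number was seen. Such correlations cannot exclude one. Genes called in the stress-response list numbered 5 for the diet in SPF mice (2 to 17 over the alternatives, the most without a fold limit) and 6 for the diet with ABX (1 with the replicate block to 12). The call of Chac1 for the difference of the diet effects was lost with RLE scaling, limma-voom, the replicate block and log2(TPM + 1). Slc7a3, Slc6a15 and Slc1a7 are limited by counts as low as 6 per mouse.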
